A study of Mus musculus with 18 samples.

Results

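Motile cilia genes encode the parts of the moving axoneme, the factors that assemble it and the regulators that switch it on. The 35 genes described here were taken from a list of such genes by symbol or older alias, and all 35 were found among the 19938 genes measured. They were followed in Igf1 null and wild-type mice, in the vestibular organ of the inner ear, which senses balance. Igf1 is the gene of insulin-like growth factor 1, a secreted hormone.

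The axoneme of a motile cilium is a ring of microtubule doublets around a central pair. Outer and inner dynein arms on the doublets supply the force, and the nexin-dynein regulatory complex, the radial spokes and the central apparatus shape it into a beat. Foxj1 and the RFX transcription factors switch on the axonemal genes, and Mcidas acts upstream of Foxj1 in cells with many cilia. Such cells line the airways, parts of the middle ear, the brain ventricles and the choroid plexus, whereas a vestibular hair cell carries a single kinocilium beside its stereocilia.

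The 6 groups were Igf1-/- and Igf1+/+ mice at E18.5, P15 and P90, on a hybrid background of Mf1 with 129/sv, with 3 arrays each and 18 in all. Per the labels' protocols, anaesthetised mice were fixed by perfusion with paraformaldehyde before dissection of the inner ear, and Trizol RNA was hybridised to a whole-transcript array. The labels call the arrays biological replicates, without stating if each came from 1 animal or from a pool. The descriptions of the wild-type arrays at P15 and P90 carry the null genotype, while their titles, source names and genotype fields give wild type, as used here. Values are in log units of the deposited scale after quantile normalization, where 1 unit is 2.72-fold if the logs are natural and 2-fold if they are base 2. A difference was called when its adjusted p in the limma fit was under 0.05.

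Igf1 itself was read as a check of the labels. At E18.5 it measured 6.40, 6.88 and 6.51 in null arrays, against 7.02, 7.07 and 6.98 in wild-type arrays. At P15 it measured 5.54, 5.69 and 5.42 in null arrays, against 5.87, 6.11 and 5.89 in wild-type arrays. At P90 it measured 5.43, 5.51 and 5.31 in null arrays, against 5.63, 5.39 and 5.56 in wild-type arrays. The null arrays lay below the wild-type arrays at E18.5 and P15 and overlapped them at P90, and the difference was not called at any age. No source used here places the probe set inside or outside the deletion.

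Of 28 listed marker genes of hair cells, 26 had a probe set, with Myo6 brightest at a mean of 6.65 and Pou4f3 dimmest at 2.82. Of these, 25 (96.2%) had a highest group mean above the background guide given in the next paragraph, as did 78.1% of all genes. Marker genes of cerebellar granule neurons averaged 6.76 in P15 null arrays and 6.69 in P15 wild-type arrays, against 3.73 and 3.61 in the null and wild-type arrays of E18.5, and the part of brain tissue in the values below was not tested. Markers of sex differed between the P90 groups and were mixed within the P15 groups. At P90, Xist, expressed from the inactive X chromosome, measured 7.91, 7.43 and 7.42 in null arrays, against 3.33, 2.87 and 1.86 in wild-type arrays. Y-linked genes averaged 2.00, 5.44 and 5.49 in the same null arrays, against 6.12, 6.12 and 6.32 in wild-type arrays. At P15, Xist measured 7.61, 8.09 and 4.09 in null arrays, against 7.48, 5.34 and 7.48 in wild-type arrays, and the Y-linked genes averaged 5.69, 3.29 and 6.31 in null arrays, against 5.56, 6.19 and 5.90 in wild-type arrays. At E18.5, Xist ran from 7.31 to 8.01 and the Y-linked mean from 5.23 to 5.95 over the arrays of both genotypes. Xist and the Y-linked genes were thus high together in each E18.5 array. Whether such arrays hold animals of both sexes was not tested. The steps between ages therefore also compare arrays that differ in these markers. Earlier work on these data set 4 arrays apart (E18.5 null 2 and 3, P90 wild type 1 and 2), and counts that move without them are given with the results.

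Part of the members were dim on this array. As a rough guide, 90% of olfactory receptor genes, taken as a stand-in for background signal, had their highest group mean under 3.52. Of the 35 members, 27 exceeded this level in at least 1 group, as did 78.1% of all genes. Foxj1, Dnah7a, Ccdc40, Drc1, Spag6, Spag16, Spag17 and Tekt4 did not. By mean level over all arrays, 32 of the 35 members lay below the median of all genes. In tissue RNA, fewer ciliated cells and less RNA per ciliated cell cannot be told apart.

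The promoters of the members were searched for the core letters of the sites bound by their known regulators. The table of RefSeq promoters (GRCm38.p6, 250 bases before to 50 after the start) matched 28 of the 35 members by symbol. The letters GTTGCC, the core of the RFX site, were present on either strand in 14 of these 28 promoters (50%), and in 14.1% of all 27025 promoters of the same length. The forkhead letters GTAAACA were present in 2 of 28 (7.1%), and in 4.1% of all promoters. The mean GC content was 55.9% in the members and 53.8% in all promoters. A match is a description of the sequence, not a binding site. The windows below are shown for members whose level changed after P15 in null arrays, with the matched letters in capitals, read 5′ to 3′ on the strand of the gene. Hydin lies at chr8:110266949-110266984 on the plus strand, Dnaic2 at chr11:114727378-114727413 on the plus strand, Lrrc23 at chr6:124779746-124779781 on the minus strand, Dnah7a at chr1:53706964-53706999 on the minus strand and Tekt2 at chr4:126325690-126325725 on the minus strand. The capitals in Hydin, Dnaic2 and Tekt2 are GTTGCC read on the opposite strand. The last pair of windows, Ak7 at chr12:105705836-105705872 on the plus strand and Cfap43 at chr19:47837395-47837431 on the minus strand, hold the forkhead letters, on the opposite strand in Ak7.
Hydin: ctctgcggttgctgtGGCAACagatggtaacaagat
Dnaic2: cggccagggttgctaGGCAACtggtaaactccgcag
Lrrc23: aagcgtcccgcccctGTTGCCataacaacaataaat
Dnah7a: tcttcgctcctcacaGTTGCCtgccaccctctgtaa
Tekt2: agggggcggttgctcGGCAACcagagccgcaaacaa
Ak7: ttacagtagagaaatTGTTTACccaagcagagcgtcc
Cfap43: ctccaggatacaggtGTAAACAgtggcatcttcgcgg
These 7 genes were picked for their call after P15 in null arrays, where 6 were higher at P90 and Tekt2 was lower. Dnah10, Drc1, Mcidas, Spag6, Spag16, Spef2, Tekt1, Tekt4 and Zmynd10 also held the RFX letters and were not called in that comparison. Dnah5, Dnah9, Dnah11, Dnaic1, Dnah2, Dnah12, Ccdc39, Ak7 and Cfap43 were called higher in it, and their promoters lacked the RFX letters. A link between the letters and the change was not tested.

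The mean level of the 35 members was 3.69, 3.56 and 3.66 in E18.5 null arrays, against 3.80, 3.71 and 3.71 in E18.5 wild-type arrays. At P15 it was 3.69, 3.47 and 3.55 in null arrays, against 3.57, 3.64 and 3.78 in wild-type arrays. At P90 it was 4.33, 3.87 and 3.97 in null arrays, against 3.88, 3.68 and 3.80 in wild-type arrays. The first P90 null array stood above all others. The null arrays lay below the wild-type arrays at E18.5, and the genotypes overlapped at P15 and P90.

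**Figure D1:**
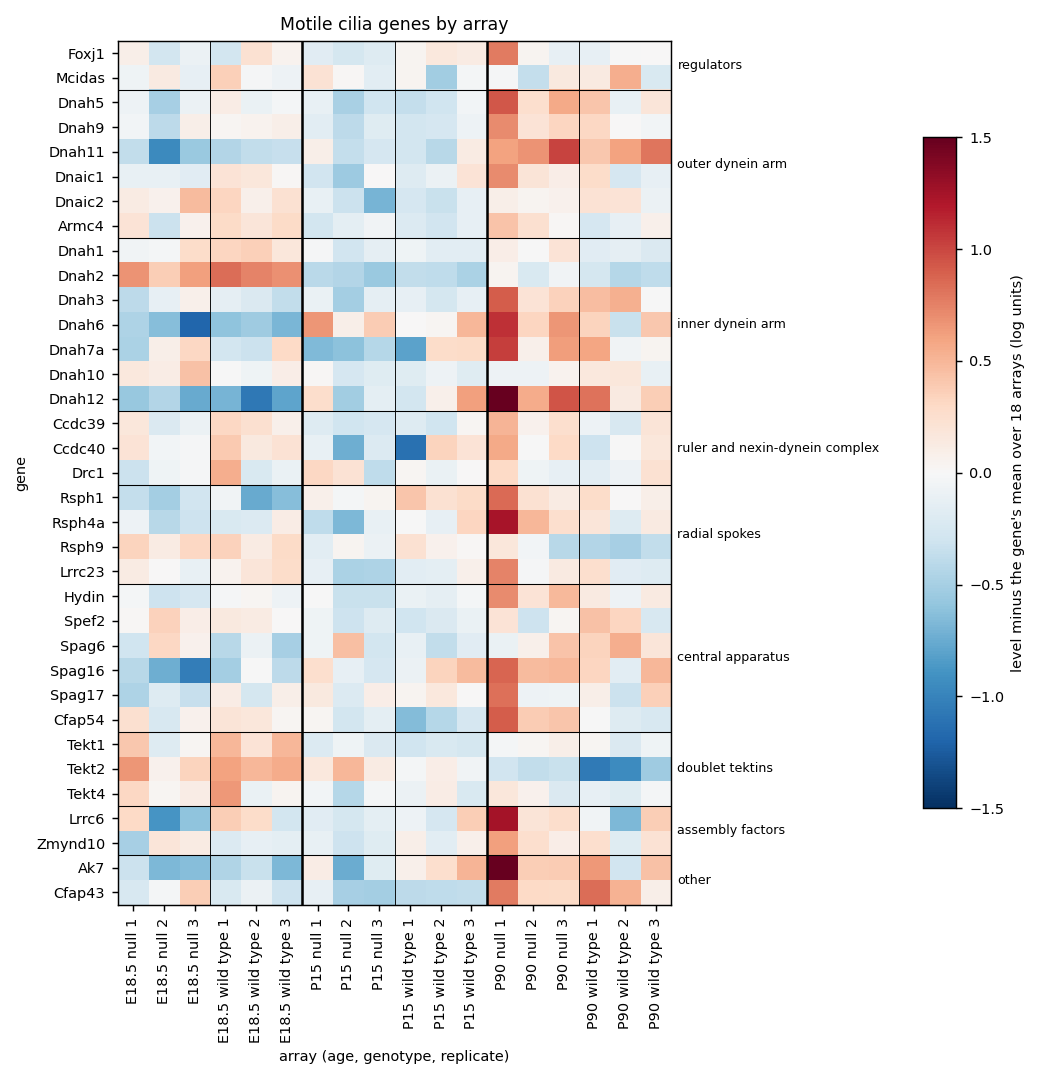
Level of each of the 35 motile cilia genes in each of the 18 arrays, as the difference from the gene's own mean over all arrays in log units. Genes run down the page by role, and arrays run from E18.5 to P90 with the null arrays left of the wild-type arrays at each age. The column of the first P90 null array is red for most genes, and Dnah2 and Tekt2 are high at E18.5.

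The clearest pattern was in null mice after P15. Between P15 and P90, 16 of the 35 genes rose in null arrays and 1, Tekt2, fell, where 13.0% of all genes were called (6.12% higher and 6.83% lower). The median of the 35 differences was 0.52 log units, against 0.02 over all genes, and 31 of 35 were positive, as were 52.8% of all genes. The 3 P90 arrays lay above the 3 P15 arrays in 25 of the 35 genes, where 16.6% of all genes did so. In wild-type arrays over the same ages, 2 of the 35 genes rose and 2 fell, where 17.9% of all genes were called (8.08% higher and 9.78% lower). The wild-type median was 0.11 and 22 of 35 were positive, as were 51.6% of all genes. These 2 steps use separate arrays, but they are not shown to differ by having more calls in one of them. The test of the difference between the steps called 0 of the 35 genes, and 3 of all genes. In that test 11 members had an unadjusted p under 0.05 (31.4%), where 6.43% of all genes did. Of the 35 differences 29 were positive, against 51.9% of all genes, with a median of 0.37, against 0.01.

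The outer dynein arm was the role with the most calls after P15 in null mice, with 5 of its 6 genes higher. The heavy chain genes Dnah5, Dnah9 and Dnah11, which encode the motors of the outer arm, rose by 0.88 ± 0.17 (adjusted p = 0.0044), 0.66 ± 0.14 (adjusted p = 0.0071) and 0.94 ± 0.17 (adjusted p = 0.0026) log units (± SE of the limma fit). The intermediate chain genes Dnaic1 and Dnaic2, which anchor the arm, rose by 0.61 (adjusted p = 0.033) and 0.45 (adjusted p = 0.049). Armc4, which encodes a docking factor of the arm, differed by 0.39 without passing the test.

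Dnah11 was the outer arm gene with the smallest p. It measured 4.28, 3.70 and 4.10 in E18.5 null arrays, against 4.21, 4.28 and 4.30 in E18.5 wild-type arrays. Dnah11 at P15 measured 4.74, 4.29 and 4.40 in null arrays, against 4.38, 4.24 and 4.78 in wild-type arrays. At P90 it measured 5.26, 5.33 and 5.66 in null arrays, against 5.06, 5.26 and 5.45 in wild-type arrays. Every P90 array of either genotype lay above every earlier array, and the genotypes overlapped at each age. The wild-type rise after P15 was 0.79 ± 0.17 (adjusted p = 0.0075), and in null arrays Dnah11 had also risen between E18.5 and P15, by 0.45 (adjusted p = 0.049).

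The inner arm genes encode the heavy chains that set the form of the bend. After P15 in null mice, 4 of the 7 rose. Dnah2, a chain of the double-headed inner arm, rose by 0.39 (adjusted p = 0.012). Among single-headed chains, Dnah3 rose by 0.73 (adjusted p = 0.017), Dnah7a by 1.15 (adjusted p = 0.025) and Dnah12 by 1.14 (adjusted p = 0.011). Dnah7a has close copies in the mouse genome, Dnah7b and Dnah7c, and its probes may read them too, so its value is uncertain. Dnah1, Dnah6 and Dnah10 had differences of 0.24, 0.32 and 0.10 and were not called.

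Dnah2 had the largest fall of the 35 between E18.5 and P15 in either genotype. It measured 4.46, 4.16 and 4.41 in E18.5 null arrays, against 4.63, 4.53 and 4.48 in E18.5 wild-type arrays. Dnah2 at P15 measured 3.38, 3.35 and 3.23 in null arrays, against 3.42, 3.41 and 3.32 in wild-type arrays. At P90 it measured 3.83, 3.56 and 3.74 in null arrays, against 3.53, 3.36 and 3.41 in wild-type arrays. All E18.5 arrays lay above all later arrays, and at P90 the null arrays lay just above the wild-type arrays. From E18.5 to P15 Dnah2 fell by 1.03 in null arrays (adjusted p = 3.5e-07) and fell by 1.16 in wild-type arrays (adjusted p = 8.6e-08).

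Of the genes of the molecular ruler and the nexin-dynein complex, Ccdc39 rose after P15 in null mice, by 0.52 ± 0.14 (adjusted p = 0.021). With Ccdc40, it encodes the ruler that sets the spacing of arms and spokes along the doublet. It measured 5.29, 4.85 and 5.04 in P90 null arrays, against 4.59, 4.49 and 4.53 in P15 null arrays. In wild-type arrays it measured 4.71, 4.54 and 4.98 at P90, against 4.59, 4.49 and 4.81 at P15. The null arrays of the 2 ages did not overlap and the wild-type arrays did. Ccdc40 differed by 0.63 and Drc1, a base subunit of the nexin-dynein complex, by -0.01 in null arrays, neither of them called.

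Among the radial spoke genes, 2 of 4 rose after P15 in null mice. Rsph4a, which encodes a protein of the spoke head, measured 4.67, 3.93 and 3.69 in P90 null arrays, against 3.06, 2.76 and 3.33 in P15 null arrays. In wild-type arrays it measured 3.62, 3.24 and 3.57 at P90, against 3.43, 3.32 and 3.76 at P15. The null arrays of the 2 ages were apart, with the first P90 array highest, while the wild-type arrays overlapped. The rise in null arrays was 1.05 ± 0.22 (adjusted p = 0.0057). Lrrc23, which encodes another spoke protein, rose by 0.64 (adjusted p = 0.025). Rsph1 differed by 0.38 and Rsph9 by -0.03, and neither of these spoke head genes was called.

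Of the central apparatus genes, which encode the projections of the central pair, 2 of 6 rose. Hydin, whose protein forms one of these projections, had the smallest p of all members in this comparison. It measured 4.68, 4.18 and 4.46 in P90 null arrays, against 3.96, 3.64 and 3.63 in P15 null arrays. In wild-type arrays it measured 4.10, 3.89 and 4.11 at P90, against 3.87, 3.83 and 3.94 at P15. The P90 null arrays lay above the arrays of the other 3 groups named, and the wild-type ages overlapped. Hydin rose by 0.70 ± 0.12 in null arrays (adjusted p = 0.002). Cfap54, another protein of the central apparatus, rose by 0.70 ± 0.15 (adjusted p = 0.0076). Spef2, Spag6, Spag16 and Spag17 had differences of 0.17, 0.10, 0.65 and 0.22 and were not called. Spag6 has a near-identical copy, Spag6l, that its probes may also read.

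Tekt2 was the only member that fell after P15 in null mice. It encodes a tektin, a filament protein inside the wall of the doublet. It measured 4.61, 4.01 and 4.28 in E18.5 null arrays, against 4.55, 4.45 and 4.51 in E18.5 wild-type arrays. At P15 it measured 4.11, 4.45 and 4.07 in null arrays, against 3.92, 4.05 and 3.90 in wild-type arrays. At P90 it measured 3.66, 3.58 and 3.61 in null arrays, against 2.89, 3.00 and 3.42 in wild-type arrays. The level was lowest at P90 in both genotypes, and after birth every null array lay above every wild-type array of its age. After P15 Tekt2 fell by 0.59 ± 0.15 in null arrays (adjusted p = 0.017) and by 0.85 ± 0.15 in wild-type arrays (adjusted p = 0.0021). Its relatives Tekt1 and Tekt4 differed by 0.20 and 0.18 in null arrays and were not called.

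Both remaining effector genes rose after P15 in null mice. Ak7, an adenylate kinase of the axoneme, rose by 1.03 ± 0.30 (adjusted p = 0.035), with 4.93, 3.79 and 3.81 in P90 null arrays, against 3.54, 2.68 and 3.24 in P15 null arrays. Cfap43, an axonemal protein, measured 6.14, 5.66 and 5.65 in P90 null arrays, against 5.24, 4.87 and 4.86 in P15 null arrays. In wild-type arrays it measured 6.20, 5.89 and 5.45 at P90, against 4.97, 4.98 and 5.0 at P15. In both genotypes the P90 arrays lay above the P15 arrays. Cfap43 rose by 0.83 ± 0.19 in null arrays (adjusted p = 0.011) and by 0.86 ± 0.19 in wild-type arrays (adjusted p = 0.0081). With the mean of its 5 probe sets in place of the brightest, the wild-type difference was 0.15 (adjusted p = 0.65) and the null difference 0.84 (adjusted p = 0.019).

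The assembly factors and regulators had no call in this comparison. Zmynd10, which helps fold dynein arms in the cytoplasm, measured 3.90, 3.54 and 3.39 in P90 null arrays, against 3.18, 2.98 and 3.11 in P15 null arrays. In wild-type arrays it measured 3.54, 3.11 and 3.51 at P90, against 3.37, 3.13 and 3.36 at P15. The null ages were apart and the wild-type ages overlapped, and the null difference of 0.52 did not pass the test. Lrrc6, a partner of Zmynd10 in assembly, differed by 0.76 in null arrays.

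Foxj1, the forkhead regulator of motile ciliogenesis, stayed near the dim end in nearly all arrays. It measured 3.26, 2.89 and 3.08 in E18.5 null arrays, against 2.89, 3.39 and 3.22 in E18.5 wild-type arrays. At P15 it measured 3.00, 2.90 and 2.97 in null arrays, against 3.21, 3.33 and 3.29 in wild-type arrays. At P90 it measured 3.95, 3.21 and 3.05 in null arrays, against 3.04, 3.16 and 3.17 in wild-type arrays. A single array, the first P90 null array, was high, and at P15 the null arrays lay below the wild-type arrays without overlap. The differences after P15 were 0.45 in null arrays and -0.15 in wild-type arrays, neither called. Mcidas, the coactivator that starts the programme of cells with many cilia, differed by -0.10 in null arrays and 0.32 in wild-type arrays, neither called.

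**Figure D2:**
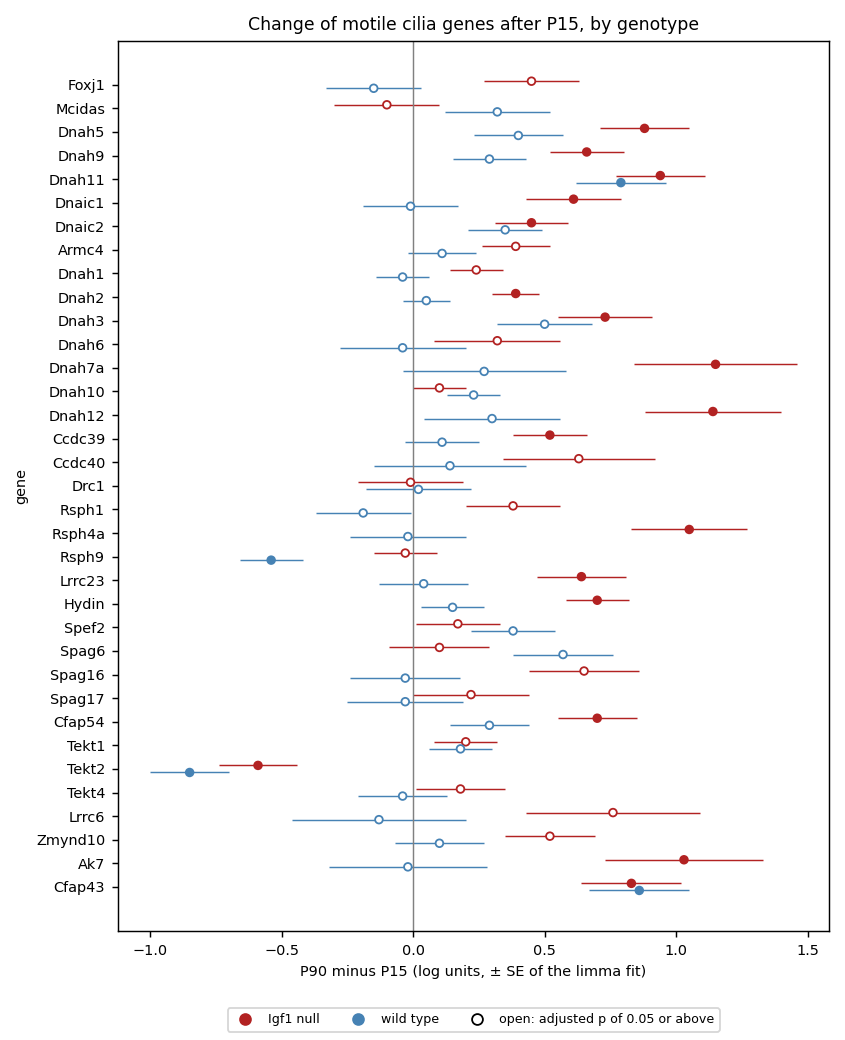
Change of each motile cilia gene between P15 and P90 (P90 minus P15, in log units, with the SE of the limma fit) in null arrays (red) and wild-type arrays (blue). Filled points are called and open points are not. The null change is positive for 31 of 35 genes and called higher for 16, and Tekt2 is called lower in both genotypes.

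In the first P90 null array the Y-linked genes averaged 2.00, against 5.44 and 5.49 in the other P90 null arrays. This first array was the highest of all 18 arrays in 21 of the 35 genes (60%), against 6.0% of all genes. Without it, the null change after P15 was called for 7 members, namely Dnah5, Dnah9, Dnah11, Rsph4a, Hydin and Cfap54, which were higher, and Tekt2, which was lower, where 9.2% of all genes were called. All 7 were also called with every array in the fit. The difference was then positive for 30 of 35, against 54.5% of all genes, with a median of 0.41, against 0.03. Hydin rose by 0.58 (adjusted p = 0.011) and Rsph4a by 0.76 (adjusted p = 0.02) without that array. The count was also 7 without P15 null array 2 and 10 without P15 null array 3, where 6.53% and 6.80% of all genes were called. With the sex score from Xist and the Y-linked genes as a covariate it was 12, with a median of 0.48, where 9.18% of all genes were called. It was 10 when only the null arrays of both ages were fitted, where 7.29% of all genes were called. With the values as deposited 31 members were called, all higher, but 37.9% of all genes were then called higher too. The median of all genes was then itself 0.39, and the median of the members 1.01. The members above the median of all genes numbered 32 of 35 as deposited and 32 with array medians subtracted.

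In wild-type mice the 35 genes had few calls after P15. Besides Dnah11 and Cfap43, which rose, and Tekt2, which fell, Rsph9 fell by 0.54 ± 0.12 (adjusted p = 0.0092). Rsph9, which encodes a spoke head protein, measured 4.10, 4.04 and 4.17 in P90 wild-type arrays, against 4.77, 4.61 and 4.56 in P15 wild-type arrays. The ages did not overlap. The count depended on the scaling of the arrays, which also moved all genes. With array medians subtracted 12 members were called, 10 of them higher, where 13.9% of all genes were called higher and 25.1% lower. The median of the members was then 0.28, against -0.08 over all genes. With the values as deposited 18 members were called, all 18 higher, where 25.5% of all genes were called higher and 2.41% lower. The median of the members was then 0.57, against 0.20 over all genes. Under either scaling, 32 of 35 members lay above the median of all genes, the same number as in null arrays. Without P90 wild-type array 3, 9 members were called, where 24.6% of all genes were, and without the 4 arrays set apart 0 were in the limma fit, where 2.09% of all genes were.

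Between E18.5 and P15, members moved in both directions, more often down. In null arrays 3 rose and 4 fell, where 40.8% of all genes were called (20.3% higher and 20.5% lower), and the median was -0.13, with 11 of 35 positive, against 45.4% of all genes. In wild-type arrays 3 rose and 8 fell, where 41.5% of all genes were called (19.7% higher and 21.9% lower), and the median was -0.15, with 13 of 35 positive, against 44.1% of all genes. With the values as deposited the medians were 0.16 in null arrays and 0.02 in wild-type arrays, against 0.25 and 0.11 over all genes. With array medians subtracted they were -0.16 in null arrays and -0.27 in wild-type arrays, against -0.07 and -0.18 over all genes. The sign of the members' median thus changed with the scaling, and the median lay below that of all genes under each of the 3 scalings. As deposited, 5 members were called in null arrays, 4 of them higher, where 27.8% of all genes were called higher. In wild-type arrays 6 were called, 4 of them higher, where 20.5% of all genes were called higher. The shares of members called, 7 of 35 in null arrays and 11 of 35 in wild-type arrays, were below the shares of all genes. In null arrays 4 were called without the 4 arrays set apart, 3 without E18.5 null array 3 and 4 without P15 null array 1. Of all genes, 29.8%, 34.1% and 34.9% were called in these fits, in that order. Dnah2 and Dnaic2 fell and Dnah6 rose in both genotypes.

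Dnah6, a single-headed inner arm chain, rose by 1.14 ± 0.24 in null arrays (adjusted p = 0.0013) and by 0.79 ± 0.24 in wild-type arrays (adjusted p = 0.016). Dnaic2 fell by 0.60 in null arrays (adjusted p = 0.0031) and by 0.44 in wild-type arrays (adjusted p = 0.019). With the mean of its 3 probe sets the Dnah6 difference was 0.86 in null arrays (adjusted p = 0.0054) and 0.48 in wild-type arrays (adjusted p = 0.093), so the wild-type call was lost. In null arrays Spag16, a central apparatus gene, rose by 0.69 (adjusted p = 0.017), Dnah10 fell by 0.37 (adjusted p = 0.0099) and Rsph9 fell by 0.32 (adjusted p = 0.0496). The Dnah10 difference with the mean of its 5 probe sets was -0.21 and was not called (adjusted p = 0.24). In wild-type arrays Dnah12 rose by 0.99 (adjusted p = 0.0065) and Rsph1 rose by 0.79 (adjusted p = 0.0022).

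The remaining wild-type falls between E18.5 and P15 covered several structures. Tekt1, the tektin named above, fell by 0.66 ± 0.12 (adjusted p = 0.00043), Cfap54 by 0.57 (adjusted p = 0.0065) and Tekt2 by 0.55 (adjusted p = 0.0074). Armc4 fell by 0.46 (adjusted p = 0.011), Dnah1, an inner arm heavy chain, by 0.41 (adjusted p = 0.0029) and Ccdc39 by 0.36 (adjusted p = 0.044). The E18.5 and P15 arrays did not overlap for any of these 6 genes. None of the 6 was called between E18.5 and P15 in null arrays, and this difference between genotypes was not tested for single steps before P15.

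**Figure D3:**
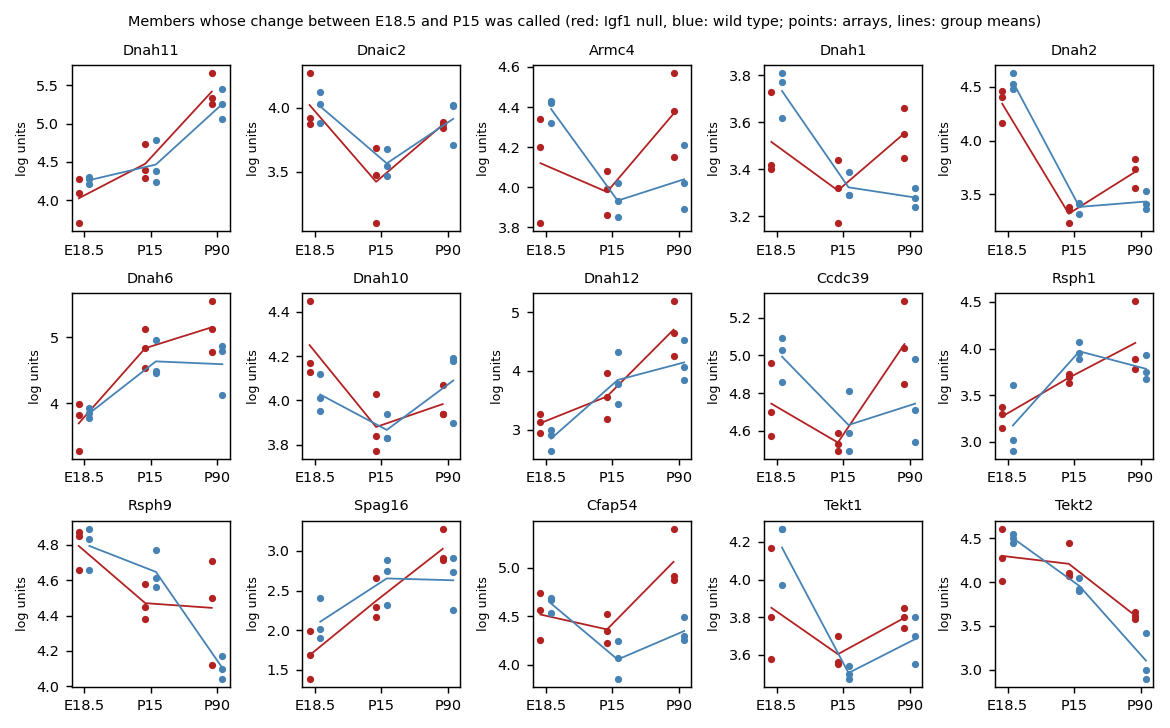
Levels (log units) at E18.5, P15 and P90 of the 15 motile cilia genes called between E18.5 and P15 in at least 1 genotype. Points are arrays and lines join group means, with null arrays in red and wild-type arrays in blue. Dnah2 falls from E18.5 to P15 in both genotypes, Dnah11 is highest at P90, and Tekt2 is lowest at P90.

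Null and wild-type arrays of the same age were compared next. At E18.5 no member was called in the limma fit, where 0.0802% of all genes were called, and 4 members had an unadjusted p under 0.05 (11.4%), as did 12.5% of all genes. The median difference was -0.16, against -0.02 over all genes, and 10 of 35 were positive, against 45.6% of all genes. With array medians subtracted the median was -0.13, against -0.12 over all genes, and as deposited -0.16, against -0.15. Under either of these scalings 16 of 35 members lay above the median of all genes. Without the 4 arrays set apart the median was -0.03, against -0.00. The shift relative to all genes thus depended on the scaling and on these arrays. The smallest p belonged to Tekt1, which measured 4.17, 3.58 and 3.80 in null arrays, against 4.27, 3.97 and 4.27 in wild-type arrays. The first null array lay within the wild-type range and the other null arrays lay below it. The difference was -0.32 ± 0.12 (adjusted p = 0.32). It was called without the first null array (-0.48, adjusted p = 0.041), where 1.94% of all genes were. Dnah1 (-0.22), Dnah2 (-0.20), Dnah10 (0.22) and Armc4 (-0.27) followed, with adjusted p from 0.38 to 0.42. With the mean of its probe sets the Dnah10 difference was -0.07.

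At P15 no member was called, where 0.0150% of all genes were called, and 0 members had an unadjusted p under 0.05, where 6.97% of all genes did. The median difference was -0.08, against 0.01 over all genes, and 12 of 35 were positive, against 53.7% of all genes. With array medians subtracted the median was -0.04, against -0.00 over all genes, and as deposited -0.04, against -0.01. Rsph4a had the smallest p, with 3.06, 2.76 and 3.33 in null arrays, against 3.43, 3.32 and 3.76 in wild-type arrays. The highest null array just exceeded the lowest wild-type array, and the difference was -0.45 ± 0.22 (adjusted p = 0.72). Cfap54 (0.31), Ak7 (-0.55), Foxj1 (-0.32) and Tekt2 (0.25) followed, with adjusted p from 0.73 to 0.82.

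At P90 no member was called, where 0.296% of all genes were called, and 12 had an unadjusted p under 0.05 (34.3%), where 11.1% of all genes did. The difference was positive for 29 of 35 members (82.9%), against 53.6% of all genes, with a median of 0.32, against 0.01. The null arrays lay above the wild-type arrays without overlap in 6 members, namely Cfap54, Tekt2, Hydin, Dnah2, Dnah1 and Rsph4a, where 6.42% of all genes did so. No member had the reverse order, which 4.06% of all genes had. This comparison shares its P90 null arrays with the null change after P15, so the high values of those arrays enter both.

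Cfap54 had the smallest p at P90. It measured 5.40, 4.87 and 4.91 in null arrays, against 4.49, 4.30 and 4.25 in wild-type arrays. At E18.5 it measured 4.74, 4.25 and 4.56 in null arrays, against 4.69, 4.67 and 4.53 in wild-type arrays. Cfap54 at P15 measured 4.52, 4.22 and 4.35 in null arrays, against 3.85, 4.07 and 4.24 in wild-type arrays. The genotypes overlapped at E18.5 and P15 and were apart at P90. The P90 difference was 0.71 ± 0.15 (adjusted p = 0.06). It was called when the probe sets of a gene were averaged (0.80, adjusted p = 0.044), when dim genes were left out (adjusted p = 0.037) and with an intensity-dependent prior (adjusted p = 0.039). Of the genes tested in these fits, 0.321%, 0.655% and 0.497% were called.

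Next at P90 came Tekt2 (0.51 ± 0.15, adjusted p = 0.21), Hydin (0.41 ± 0.12, adjusted p = 0.23), Dnah2 (0.27 ± 0.09, adjusted p = 0.29) and Rsph4a (0.62 ± 0.22, adjusted p = 0.32). Without the first P90 null array, 26 of 35 differences were positive, against 56.6% of all genes, with a median of 0.17. None was then called, where 0.0853% of all genes were. Without P90 null array 3, Cfap54 (0.79, adjusted p = 0.045) and Rsph9 (0.50, adjusted p = 0.04) were called, where 1.01% of all genes were. Without P90 wild-type array 3, Tekt2 (0.67, adjusted p = 0.03) was called, where 3.38% of all genes were. With the sex score as a covariate the median was 0.16, against 0.03 over all genes, and 0 of all genes were called. At P90 Xist was higher in every null array than in every wild-type array. Sex and genotype therefore cannot be told apart at this age by this fit, and the part of sex in these differences was not tested.

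**Figure D4:**
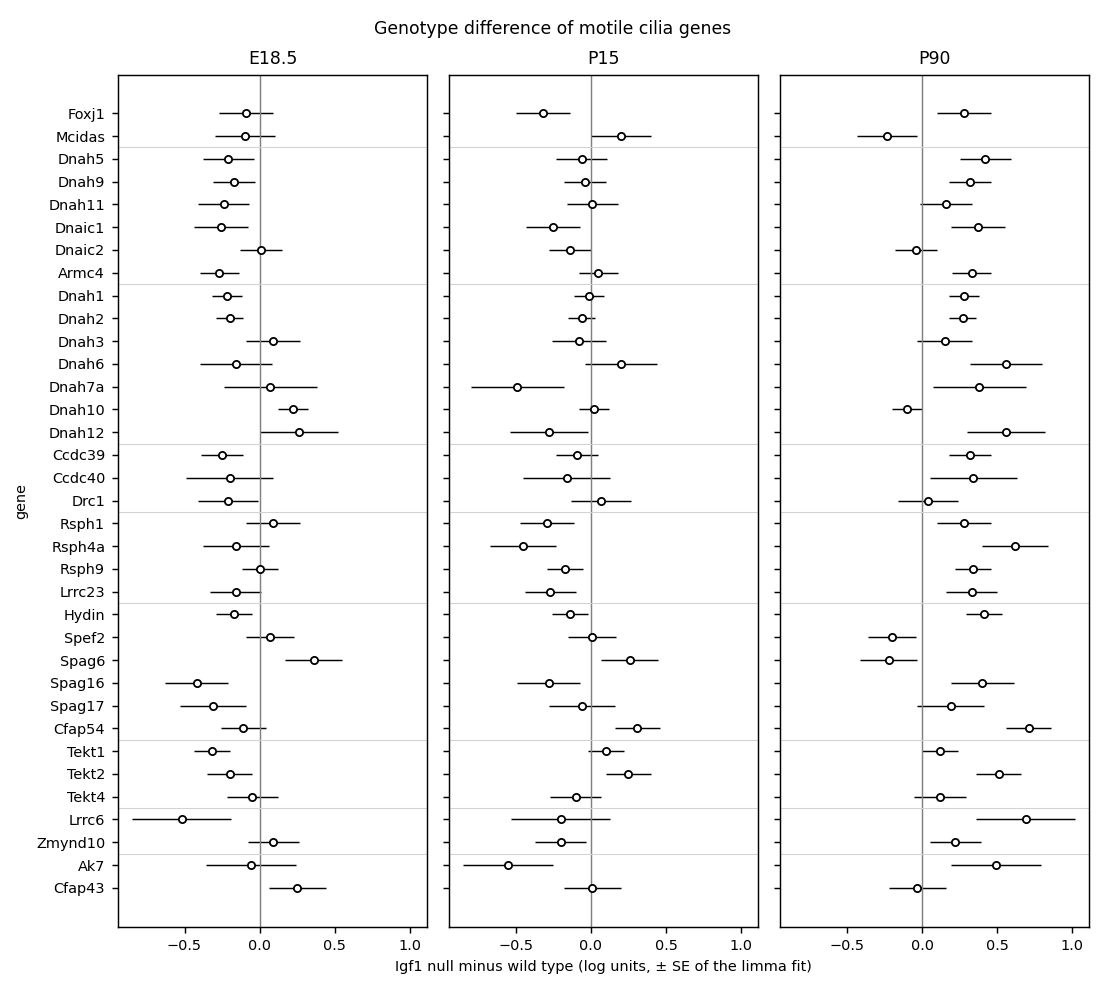
Genotype difference (null minus wild type, in log units, with the SE of the limma fit) of each motile cilia gene at E18.5, P15 and P90, grouped by role. All points are open because no member was called. Most points lie left of 0 at E18.5 and right of 0 at P90, where 29 of 35 are positive.

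An F-test asked whether the genotype difference was equal at the 3 ages. It called 0 members and 0.256% of all genes, and 12 members had an unadjusted p under 0.05 (34.3%), where 14.5% of all genes did. The smallest adjusted p was 0.21, shared by Cfap54, Dnah2 and Hydin, and Dnah1 and Rsph4a followed at 0.23. Without P90 wild-type array 3, Tekt2 was called (adjusted p = 0.047).

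Other genes of the axoneme, from a wider list, were set beside the members. Of 96 further axonemal and motile cilia genes, 87 were measured. After P15, 25 of the 87 rose (28.7%) and 0 fell in null arrays, where 6.12% of all genes rose and 6.83% fell, with a median of 0.36. In wild-type arrays 4 rose and 2 fell, where 8.08% of all genes rose and 9.78% fell. Odf3b, an outer dense fibre relative, rose in null arrays by 0.92 (adjusted p = 0.00045), Cfap74, known as a central apparatus protein in Chlamydomonas, by 0.71 (adjusted p = 0.001) and Dnali1, an inner arm light chain, by 1.00 (adjusted p = 0.035). At P90 the null minus wild-type difference was positive for 76 of the 87 (87.4%), against 53.6% of all genes, with a median of 0.24 and no call in the limma fit (26 with an unadjusted p under 0.05, or 29.9%, where 11.1% of all genes had one). Between E18.5 and P15, 5 rose (5.7%) and 18 fell (20.7%) in null arrays, where 20.3% of all genes rose and 20.5% fell. In wild-type arrays 5 rose (5.7%) and 27 fell (31.0%), where 19.7% of all genes rose and 21.9% fell.

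Regulators and transport genes were also counted after P15, where 6.12% of all genes rose and 6.83% fell in null arrays. Of 17 regulators of cells with many cilia, none rose and 1 fell in null arrays, with a median of 0.04. The one that fell was Myb, a transcription factor, by 0.87 (adjusted p = 0.0035). Of 37 genes of intraflagellar transport and the BBSome, which serve immotile primary cilia as well, 4 rose and 1 fell in null arrays, with a median of 0.10. Bbs9, a BBSome subunit, rose by 0.41 (adjusted p = 0.0016). Between E18.5 and P15, 5 of the 37 rose (13.5%) and 17 fell (45.9%) in null arrays, where 20.3% of all genes rose and 20.5% fell. In wild-type arrays 2 rose (5.4%) and 24 fell (64.9%), where 19.7% of all genes rose and 21.9% fell.

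Markers of other tissues with motile cilia, or beside them, moved in the same arrays. Choroid plexus markers (15 of 17 measured) averaged 5.36, 4.87 and 4.66 in P90 null arrays, against 4.98, 4.15 and 4.40 in P90 wild-type arrays. At P15 they ran from 4.27 to 4.40 in null arrays, against 4.75 to 5.01 in wild-type arrays. The null arrays were thus lower without overlap at P15 and overlapping but higher on average at P90. No choroid plexus marker was called between genotypes at either age in the limma fit, where 0.0150% and 0.296% of all genes were. At P15, 8 of the 15 had an unadjusted p under 0.05 in that fit (53.3%), where 6.97% of all genes did. At P90, 6 of the 15 had one (40.0%), where 11.1% of all genes did. After P15, 6 of the 15 rose in null arrays (40.0%), where 6.12% of all genes rose. The brightest, Ttr, the thyroid hormone carrier secreted by the choroid plexus, rose by 2.48 (adjusted p = 0.0066).

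Ttr measured 8.73, 8.07 and 7.63 in P90 null arrays, against 8.33, 5.82 and 6.84 in P90 wild-type arrays. At P15 it measured 5.48, 6.47 and 5.05 in null arrays, against 8.20, 7.76 and 8.39 in wild-type arrays. The null arrays lay below the wild-type arrays at P15, without a call (adjusted p = 0.25), and the genotypes overlapped at P90.

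Markers of mucosal secretory epithelium, as found in the middle ear and airway, averaged 4.78, 4.31 and 4.40 in P90 null arrays, against 4.02, 3.83 and 3.89 in P90 wild-type arrays. The P90 genotypes did not overlap, and the first null array was again highest. At P15 the list ran from 3.52 to 3.87 in null arrays, against 3.51 to 3.71 in wild-type arrays. After P15, 10 of the 23 rose in null arrays (43.5%), where 6.12% of all genes rose, and all 23 differences were positive, with a median of 0.82. Between genotypes at P90, Reg3g, an antimicrobial lectin, was higher in null arrays by 2.70 (adjusted p = 0.021), Sftpd, a surfactant protein, by 1.21 (adjusted p = 0.045) and Pigr, the immunoglobulin transporter of mucosa, by 1.11 (adjusted p = 0.022). Of this list, Bpifa1 was brightest at a mean of 6.62 and Scgb1a1 dimmest at 1.05. The part of choroid plexus and mucosal tissue in the values of the motile cilia genes was not tested.

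Hair cell markers averaged 4.30, 4.41 and 4.26 in P90 null arrays, against 4.09, 4.10 and 4.05 in P90 wild-type arrays. The genotypes did not overlap, and the first P90 null array was not the highest. Of the 26 measured, 22 were positive at P90 (84.6%), against 53.6% of all genes. In the limma fit 10 had an unadjusted p under 0.05 (38.5%), where 11.1% of all genes did. Only 1 was called (3.8%), where 0.296% of all genes were. It was Ocm, a calcium buffer of hair cells, higher by 0.73 (adjusted p = 0.049). Supporting cell markers averaged 5.18, 5.33 and 5.09 in P90 null arrays, against 4.91, 4.99 and 4.82 in P90 wild-type arrays, again without overlap. Of the 14 measured, 12 were positive at P90 (85.7%), and 8 had an unadjusted p under 0.05 in the limma fit (57.1%). Here too 1 was called (7.1%), namely Otogl, an otogelin relative, higher in null arrays by 0.91 (adjusted p = 0.018). The part of hair cells and supporting cells in the motile cilia values was not tested.

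**Figure D5:**
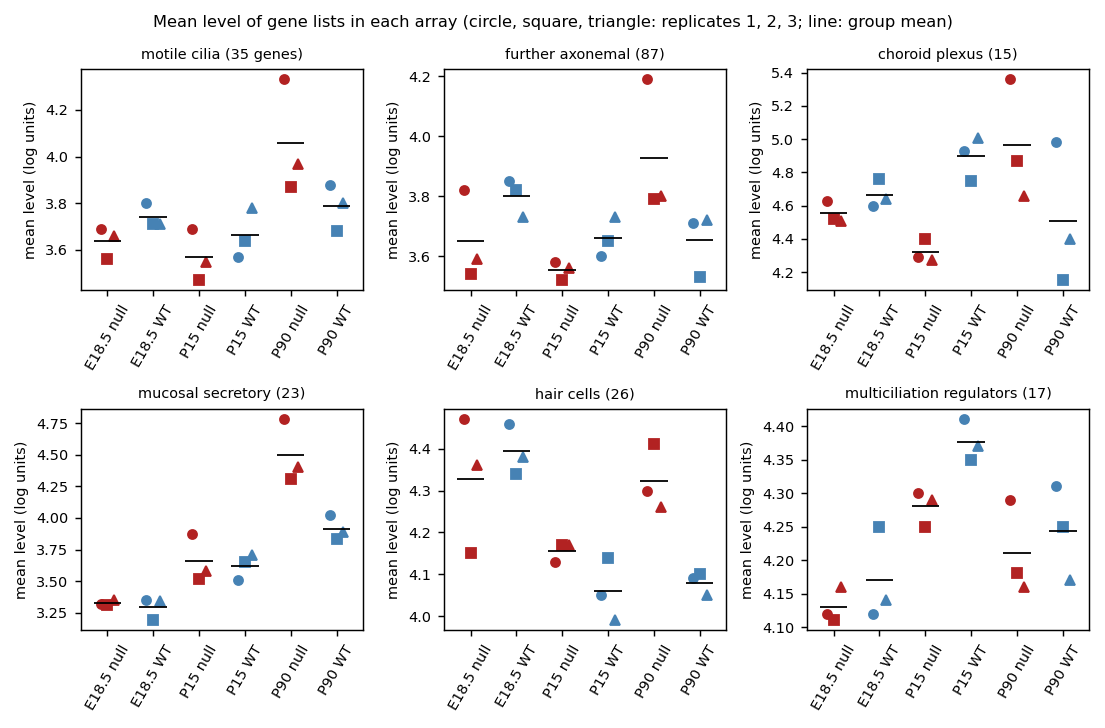
Mean level (log units) of the motile cilia genes and 5 other gene lists in each array, with circle, square and triangle for replicates 1, 2 and 3 and a line at the group mean. Null groups (red) stand left of wild-type groups (blue) at each age. The first P90 null array is highest for the motile cilia, further axonemal, choroid plexus and mucosal lists, and not for hair cells.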

How the data were processed

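The authors deposited 1 table of log values, possibly natural log (ln) but of a base that is not stated, for 28853 probe sets of an Affymetrix Mouse Gene 1.1 ST array in 18 samples. How the arrays were summarized and background-corrected is likewise not stated, and differences are in log units. Deposited array medians ran from 3.88 to 4.82, so the arrays were quantile normalized over all probe sets; this removes any overall difference between groups. Age, genotype and replicate came from the titles. No array pair held identical values (highest correlation 0.9897). The plan had assumed that the values were already normalized.

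Probe sets with 1 gene symbol in the platform annotation (21789, with 1621 naming several and 5443 not listed) were updated to RefSeq GRCm38.p6 symbols by gene identifier (21698 matched), and the brightest probe set of each gene was kept, which left 19938 genes. A limma 3.58.1 model in R 4.3.3 (lmFit and eBayes, 6 group means, 18 arrays) gave 7 contrasts and an F-test, with Benjamini-Hochberg adjustment over all genes and a threshold of 0.05. The fit was tested on simulated data. With 3 arrays a group, and arrays of unknown origin, p-values cover only the spread among these arrays, whose number limits the precision. The test of the difference between the P90 minus P15 changes was added after seeing the data. Alternatives were other scalings, a filter on dim genes, mean of probe sets, other variance settings, a sex covariate, a replicate block and leaving out arrays.

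Members with differences in the text are those called and, for each genotype comparison and the F-test, the 5 with the smallest p; values per array are given for Foxj1 and for the smallest p of each comparison and role. Ak7, Ttr and Rsph9 were added after their values were seen. The members, the marker lists and the 4 arrays left out together were chosen with earlier results of these data known. Same-numbered arrays did not deviate together (9 pairs, r from -0.19 to 0.24, 2 over 0.1), so replicate numbers were not used as pairs.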

Additional observations from a re-analysis of the deposited data

How the results depend on the processing

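Of the 8 counts of called motile cilia genes (7 contrasts and the F-test), those that moved did so as follows, and the cause was not tested. For null minus wild type at P90 (0 called), 1 was called with the mean of probe sets, with dim genes left out and with an intensity trend and robust prior. Of the genes tested in these fits, 0.321%, 0.655% and 0.497% were called. For wild-type P15 minus E18.5 (11), 6 were called with the values as deposited, where 28.6% of all genes were. For wild-type P90 minus P15 (4), 12 were called with array medians subtracted, 18 as deposited, 2 with the sex score and 0 without E18.5 null arrays 2 and 3 and P90 wild-type arrays 1 and 2 (earlier work set these 4 apart). Of all genes, 39.0%, 27.9%, 4.38% and 2.09% were called in these fits, in that order. With the sex score the members' median was 0.22, against 0.00 over all genes, and 29 of 35 lay above the median of all genes. For null P15 minus E18.5 (7), 4 were called without those 4 arrays, where 29.8% of all genes were. For null P90 minus P15 (17), 31 were called as deposited and 10 when only the arrays compared were fitted. Of all genes, 38.9% and 7.29% were then called. Leaving out 1 array gave 0 to 1 calls for the genotype difference at E18.5, 0 to 0 at P15 and 0 to 2 at P90, and 0 to 1 for the F-test. It gave 3 to 7 for null P15 minus E18.5 (3 without E18.5 null array 3, 4 without P15 null array 1) and 7 to 18 for null P90 minus P15 (7 without P15 null array 2 or P90 null array 1, 10 without P15 null array 3). It gave 9 to 11 for wild-type P15 minus E18.5 and 4 to 9 for wild-type P90 minus P15. Without E18.5 null array 1, Tekt1 was called at E18.5 (-0.48, adjusted p = 0.041), where 1.94% of all genes were. With the replicate number as a block the counts of called members were 0 for each of the 3 genotype differences, 7 and 16 for the null steps, 12 and 6 for the wild-type steps and 0 for the F-test. Of all genes, 0.0602%, 0.0100% and 0.241% were then called for the genotype differences at E18.5, P15 and P90. For the steps, 39.2% and 11.4% of all genes were called in null arrays and 40.2% and 15.3% in wild-type arrays. The single-gene differences kept direction and call in 830 of 937 settings, lost the call in 100, gained it in 6 and reversed in 1, Dnah10 at E18.5 (-0.07 with the mean of probe sets, against 0.22). As deposited, the median of all genes shifted by 0.39 for null P90 minus P15, 0.20 for wild-type P90 minus P15, 0.25 for null P15 minus E18.5 and 0.17 for the genotype difference at P90. Changes are therefore relative to other genes. Dim signal limits the 8 members that did not exceed the olfactory guide.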

Other observations

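The genes whose deviations from their group means followed the mean of the 35 members most closely over the 18 arrays were Ccdc153 (r = 0.94), Rgs22 (0.91), Sntn (0.88), Tspan1 (0.88), Dthd1 (0.87), 1110017D15Rik (0.87), Fam216b (0.87), Cdhr4 (0.87), Stk39 (0.86) and Dnajb13 (0.86). These correlations describe arrays that share their normalization and include the first P90 null array. Ccdc153 rose after P15 by 1.09 in null arrays (adjusted p = 0.0051 in the limma fit) and differed by 0.55 in wild-type arrays without a call. Within the members, the deviations of Dnah5 (r = 0.92), Ak7 (0.90) and Cfap54 (0.88) followed the mean of the others most closely, and those of Spag6 (-0.53) ran against it.

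Of the 8 members with several probe sets, Armc4, Dnah6, Dnah12 and Cfap54 had a positive null minus wild-type difference at P90 in every probe set, and Dnah3, Dnah10, Spef2 and Cfap43 had probe sets of both signs. Spef2 has 22 probe sets: the brightest gave a null minus wild-type difference of -0.20, and the median of the 22 was 0.49, with 21 positive. Cfap43 has 5: the brightest gave -0.03, and the median was 0.54, with 4 positive. For the null change after P15, all 33 probe sets of Dnah3 were positive, from 0.21 to 1.75, and so were all 5 of Dnah10, whose mean was 0.50 (adjusted p = 0.026) where its brightest probe set gave 0.10.

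In the 4 arrays that earlier work set apart (E18.5 null 2 and 3, P90 wild type 1 and 2), members leaned lower than all genes did. Within both of their groups, 5 members were higher in them (14.3%, against 18.6% of all genes) and 12 were lower (34.3%, against 23.5%). Without these arrays the members' median null minus wild-type difference was -0.03 at E18.5 (-0.16 with them) and 0.23 at P90 (0.32 with them).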
